A study of Mus musculus with 69 samples.

Results

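The acetylation of histone H3 at lysine 27 (H3K27ac) was compared between Kmt2c-knockout and wild-type haematopoietic stem cells (HSCs) after chemotherapy. The comparison rests on 2 peak lists, 1 for each genotype, chosen by their labels, with autosomes taken first. Merged peaks of both lists gave 80369 autosomal regions, out of 164451 in all 18 lists of the series. The knockout carried floxed Kmt2c on both alleles and the Vav-Cre transgene (Kmt2c f/f; Vav-Cre), and the other group was labelled wild type, with no word on whether it carried Cre. Both groups were 16 weeks old and had received 3 doses of 150 mg/kg 5-fluorouracil (5FU), 1 every 3 weeks. Each list was made from 3 libraries that were pooled before deposit, so neither list holds replicate values, no test between genotypes was possible and every difference is a difference between 2 lists. The matching pair of lists from mice given 3 doses of vehicle (PBS), also from 3 libraries each, shares no library with the 5FU pair and is given beside it. The title of the series names a selective advantage of Kmt2c-mutant HSCs after chemotherapy, and the comparison asks how the mark of active regulatory DNA differs between the genotypes in treated animals.

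Kmt2c encodes MLL3, the catalytic subunit of a complex that places monomethyl marks on H3K4 at enhancers and that also holds the H3K27 demethylase Kdm6a. H3K27ac is written by p300 and CBP at promoters and enhancers in use, and in HSCs it marks the genes that keep the cell quiescent, those that prepare it to divide, and genes of the blood lineages at which it is primed. 5FU blocks thymidylate synthesis and kills cycling cells, so that repeated doses force surviving HSCs to divide and rebuild the blood. In Vav-Cre mice the Cre recombinase is made in all blood-forming cells from before birth, under regulatory sequence of the Vav1 gene, so the knockout is lifelong in the lineage and is not confined to the time of treatment.

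The wild-type 5FU list held 66420 autosomal peaks over 44.9 Mb and the knockout list 65802 over 36.1 Mb. The numbers of peaks were thus close, but the knockout peaks were narrower, with a median of 293 bases against 379. In the PBS pair the knockout list was also the smaller in covered length, with 33.1 Mb against 41.8 Mb. The covered length of the knockout list was between 0.768 and 0.828 times that of the wild type on every autosome, and 0.843 times on chromosome X, so no single chromosome carried the difference. Peaks with −log10 q of 5 or more, as the authors' caller gave it, made up 25.3% of the wild-type and 15.6% of the knockout list. The depth of the libraries is unknown, and a shallower or noisier knockout library set cannot be told apart from a thinner mark.

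Nearly all strong H3K27ac regions were common to both genotypes after 5FU, and the lists parted at the weak ones. Regions at or above the cut for the top 25% of their list by −log10 p were called strong. The cut was 7.66 in the wild-type and 5.82 in the knockout list, and all regions tied at it were counted. Quartiles were cut in the same way and so differ in size. A region counted as found if the other genotype had a region sharing 1 bp or more with it. Of 16746 strong wild-type regions, 98.7% (Wilson 95% interval 98.5% to 98.9%, counting error only) were found in the knockout, and of 18446 strong knockout regions 98.6% (98.4% to 98.7%) were found in the wild type. In the weakest quartile of each list the shares were 29.3% and 47.8%. Within every quartile, regions within 1 kb of an end of a protein-coding gene (proximal) were found more often than distal ones: in the weakest quartile of the wild-type list 38.7% of proximal and 28.4% of distal regions were found.

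**Figure D1:**
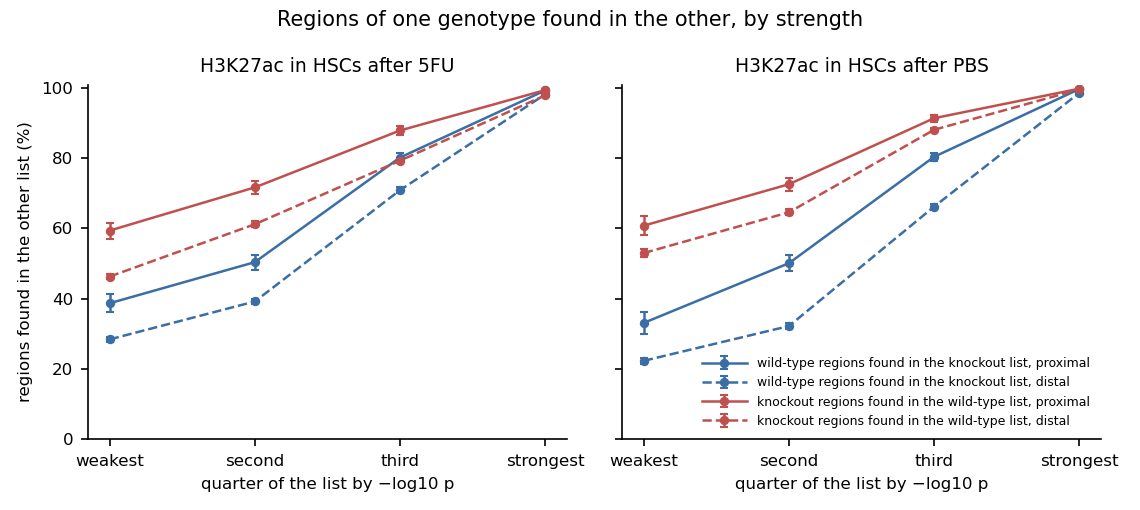
Share of autosomal H3K27ac regions of one genotype that were found in the list of the other genotype, in %, by quartile of the list from weakest to strongest −log10 p, after 5FU (left) and PBS (right). Blue lines stand for wild-type and red for knockout regions, solid lines for proximal and dashed lines for distal ones, with bars for Wilson 95% intervals; all lines rise to between 97.9% and 99.8% in the strongest quartile.

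Where both genotypes had a region, the knockout region was usually the shorter, and more so away from genes. Over 37010 regions present in both lists, the median covered length was 760.0 bases in the wild type and 594.5 in the knockout, and the knockout covered fewer bases in 69.5% of them. The median log2 ratio was −0.08 at 10944 proximal regions and −0.25 at 26066 distal ones. The PBS pair gave −0.06 and −0.23. Of the wild-type bases, 66.7% were also covered in the knockout, 18.5% lay on parts of common regions that the knockout peaks did not reach, and 14.7% lay in regions the knockout list lacked. For the knockout bases these shares were 83.1%, 8.28% and 8.63%.

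Strong regions present in 1 genotype only were few, short and mostly distal. There were 215 in the wild-type list (1.28% of its strong regions) and 263 in the knockout list (1.43%). Their median widths were 467 and 279 bases, against 1384 and 1074 for strong regions found in both. Their median −log10 p was 8.46 and 5.82, against cuts of 7.66 and 5.82, so the knockout median lay at the cut itself. The number of knockout exclusive regions thus depends on where ties at the cut are placed. Of the wild-type exclusive regions 24.2% (18.9% to 30.3%) were proximal, against 45.0% of the strong wild-type regions that were found, and for the knockout these shares were 16.7% (12.7% to 21.7%) and 42.7%. The knockout thus held 55.0% (50.5% to 59.4%) of the 478 strong exclusive regions, whereas after PBS it held 21.8% (16.2% to 28.7%) of 165 (129, or 0.875% of strong wild-type regions, and 36, or 0.281% of strong knockout regions). This balance has no stable direction after 5FU: it was 39.3% when strength was taken from fold enrichment, 4.17% (1 of 24) among peaks with −log10 q of 5 or more and 99.8% (908 of 910) with lists limited to equal covered bases.

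Among exclusive regions also in 1 genotype only after PBS, the share keeping its genotype exceeded that of all such PBS regions, strong or weak. Of the 215 wild-type exclusive regions, 80.5% were present in the wild-type and 52.6% in the knockout PBS list of HSCs. Of the 88 that were exclusive to 1 genotype after PBS too, 74 (84.1%, 75.0% to 90.3%) were again in the wild type. Of the 263 knockout exclusive regions, 49.4% were in the wild-type and 51.7% in the knockout PBS list, and 54 of 102 (52.9%, 43.3% to 62.3%) kept their genotype. Of all 34245 regions in 1 genotype only after PBS, 68.5% were in the wild type and 31.5% in the knockout. Of the 165 strong exclusive regions after PBS, 129 were in the wild type and 36 (21.8%) in the knockout. The wild-type share of these strong regions, 129 of 165, lies within the interval of 75.0% to 90.3% above. The knockout share of 21.8% lies below that of 43.3% to 62.3%. Haematopoietic progenitor cells (HPCs), the more committed descendants of HSCs, were profiled in other mice of 8 to 10 weeks, given PBS or 0.5 µg of interleukin-1 (IL-1) a day for 3 days, so they differ from the HSC lists in age and treatment as well as in cell type. The wild-type exclusive regions were found in 70.7% (64.3% to 76.4%) of cases in wild-type and 57.7% (51.0% to 64.1%) in knockout HPCs after PBS, and in 66.5% and 51.2% after IL-1. The knockout exclusive regions were found in 44.1% and 47.9% of cases after PBS, and in 42.6% and 44.1% after IL-1.

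H3K4me1, the mark that MLL3 writes, covered most exclusive regions of either kind at 8 weeks. In untreated HSCs at 8 weeks, wild-type exclusive regions carried H3K4me1 in 69.8% (63.3% to 75.5%) of cases when the cells were wild type, 73.5% when heterozygous and 70.7% when knockout. Knockout exclusive regions carried it in 63.1% (57.1% to 68.7%), 71.5% and 75.7% (70.1% to 80.5%). The strong regions found in both genotypes carried it in 75.5% to 84.2% of cases over these 3 lists. The knockout list was the longer of the pair at this age, with 113 Mb against 85.8 Mb in the wild type, and over these lists the share of shared wild-type regions was 78.1% in the wild type and 84.2% in the knockout. At 16 weeks the knockout lists were the shorter, with 44.2 Mb against 116 Mb after 5FU and 44.2 Mb against 54.0 Mb after PBS. The wild-type 5FU list pooled 6 libraries of differing title prefixes, the knockout list 4 of a single prefix. Peaks with −log10 q of 5 or more made up 28.2% and 0.635% of these 5FU lists. At this age, wild-type exclusive regions carried H3K4me1 in 70.7% (64.3% to 76.4%) of cases in the wild type and 49.8% (43.1% to 56.4%) in the knockout after 5FU, and in 114 and 96 of the 215 after PBS. For knockout exclusive regions the shares were 74.1% in the wild type and 49.4% in the knockout after 5FU, and 51.0% and 47.5% after PBS. Shared wild-type regions carried it in 83.5% and 59.5% after 5FU, and in 64.0% and 58.8% after PBS.

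The strongest exclusive regions lay in genes of varied function, and few kept their genotype after PBS. In the wild-type list they lay in Pik3c3, the class III phosphoinositide 3-kinase of autophagy, at chr18:30267602-30268022, in Pde3b, a cyclic nucleotide phosphodiesterase, at chr7:114414681-114416734, in Rab1b, a GTPase of transport to the Golgi, in St3gal6, a sialyltransferase, and in Smad4, the common mediator of TGF-beta signals, at chr18:73703113-73703817. The authors' −log10 p of these 5 regions ran from 11.7 to 15.5. After PBS, the region in Pik3c3 was again in the wild type alone, that in Rab1b was in the knockout alone, and the other 3 were in both lists. In the knockout list the strongest lay in Them7, 7226 bases from Pecam1, an adhesion molecule of endothelium and HSCs, and in Zfp407, Rimkla and Vav1, with −log10 p of 8.93 or more. Those in Zfp407 and Vav1 were again in the knockout alone after PBS, that near Pecam1 was in the wild type alone, and those in Them7 and Rimkla were in both.

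To compare genes, the bases covered by peaks from 50 kb below to 50 kb above each protein-coding gene were added up for either genotype. Knockout and wild-type sums, each increased by 1000 bases, were compared as a log2 ratio from which that of the median gene was subtracted. The median gene itself stood at −0.16 after 5FU and at −0.15 after PBS, so lower and higher below are relative to a general deficit in the knockout. Of 15215 autosomal genes that had 1000 or more covered bases in 1 or both lists, 767 (5.04%) were at least 1.5-fold lower in the knockout and 103 (0.677%) at least 1.5-fold higher. On chromosome X, 16 of 354 measured genes (4.52%) were lower and 2 (0.565%) higher. After PBS 702 of 15152 autosomal genes (4.63%) were lower and 115 (0.759%) higher. The excess of lower over higher genes held with peaks of −log10 q of 5 or more, where 2635 were lower and 248 higher, but with lists limited to equal covered bases 338 were lower and 352 higher.

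Genes with lower coverage in the knockout after 5FU also stood low after PBS. Of 729 genes that were 1.5-fold lower after 5FU and measured after PBS, 693 (95.1%) lay below the median gene after PBS, against 49.9% of all genes, and 315 (43.2%) were again 1.5-fold lower, against 4.55% of all genes. These 315 made up 46.3% of the 681 genes lower after PBS. Of 91 higher genes measured after PBS, 78.0% lay above the median gene and 25 (27.5%) were again 1.5-fold higher, against 0.668% of all genes. Across 14959 genes, which are not independent replicates, Spearman's rho between the 5FU and PBS ratios was 0.54.

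**Figure D2:**
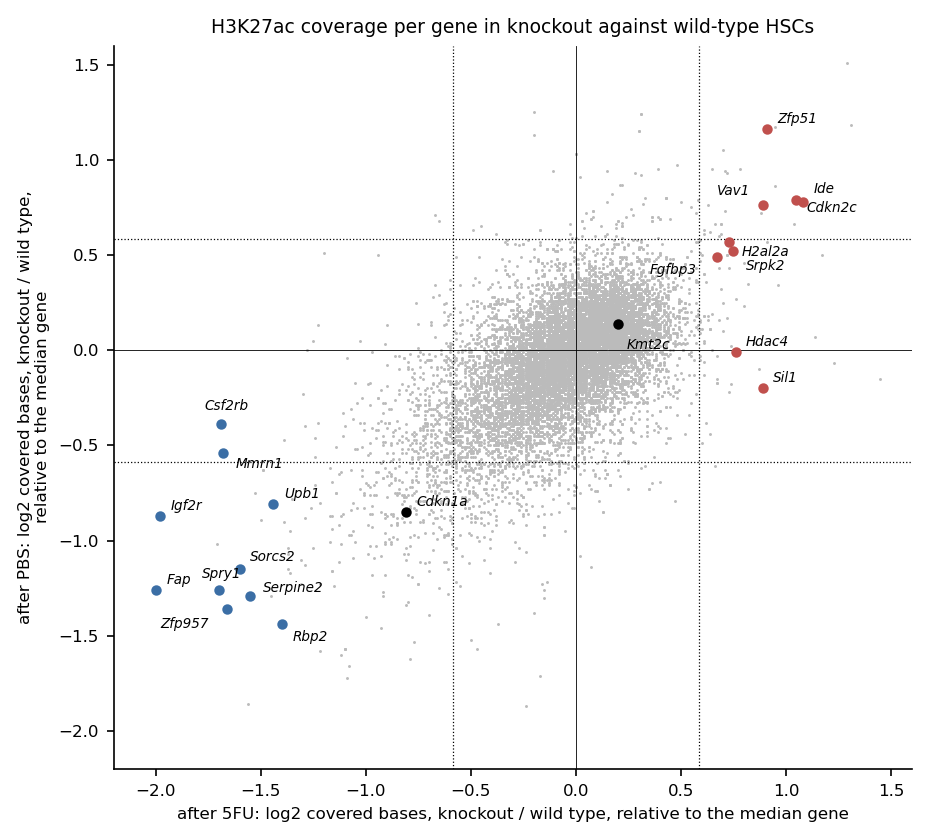
Log2 ratio of covered bases in knockout over wild-type HSCs, relative to the median gene, after 5FU (x axis) and after PBS (y axis), 1 grey point for each of 14959 autosomal genes. Blue points are the 10 genes named as lowest after 5FU, red points 9 of the 10 chosen by the same rule as highest, black points Kmt2c and Cdkn1a, and dotted lines mark a 1.5-fold difference; all 10 blue genes lie below 0 on both axes, and among the red genes Sil1 and Hdac4 lie at or below 0 after PBS.

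These genes also stood low relative to the median gene in HPCs and, at 8 weeks, for H3K4me1. Of the genes 1.5-fold lower in HSCs after 5FU, 83.0% of 687 measured genes lay below the median gene in the knockout HPCs after PBS and 85.1% of 656 in those after IL-1, against 50.3% and 50.2% of all genes. For H3K4me1 in untreated HSCs at 8 weeks the share was 82.0% of 765 genes, against 50.4% of all genes, with a median of −0.18. The median gene of that pair stood at 0.39, so a place below it need not mean fewer bases in the knockout. Of the 765 genes, 16 (2.09%) were 1.5-fold lower, against 0.444% of all genes. The share below the median gene was 70.3% for H3K4me1 after PBS. After 5FU it was 55.2%, in a pair of H3K4me1 lists of very unequal coverage, where the median gene stood at −1.20. Genes higher after 5FU lay above the median gene in 79.7% and 77.5% of cases in HPCs and in 74.8% of cases for H3K4me1 at 8 weeks, but in 43.6% for H3K4me1 after 5FU.

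**Figure D3:**
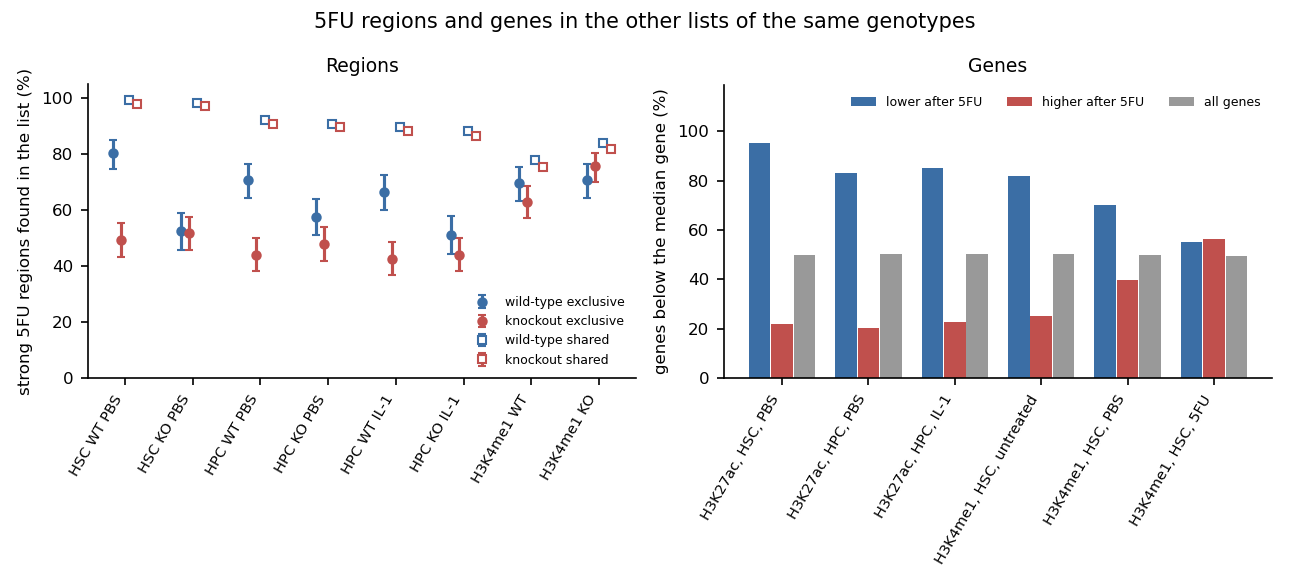
Left: share of strong 5FU regions, in %, that were found in other lists of wild-type (WT) and knockout (KO) cells, with filled circles for exclusive and open squares for shared regions, blue for wild-type and red for knockout regions, and bars for Wilson 95% intervals; H3K4me1 is from untreated HSCs. Right: share of genes below the median gene, in %, in 6 other comparisons of knockout with wild type, for genes 1.5-fold lower after 5FU (blue), 1.5-fold higher (red) and all genes (grey); the blue bars run from 95.1% down to 55.2%.

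The 10 genes with the lowest ratio, taken 1 per neighbourhood among genes that had 5000 or more covered bases, included regulators of growth factor signalling. Spry1, a feedback inhibitor of receptor tyrosine kinase signalling that is active in stem cells, had 11027 covered bases in the wild type and 2304 in the knockout, a relative log2 ratio of −1.70. After PBS it had 9111 and 2806 (−1.26). Its window held 25 wild-type and 6 knockout regions, and all 6 knockout regions overlapped a wild-type one. The peak at its promoter was present in all 4 lists, with 891 bases in the wild type and 747 in the knockout after 5FU, and 736 in both after PBS. With windows of 10 kb in place of 50 kb its ratio was −0.98.

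Csf2rb encodes the signalling chain that the receptors of GM-CSF, IL-3 and IL-5 have in common. It had 7766 bases in the wild type and 1430 in the knockout after 5FU (−1.69), and 5192 and 3236 after PBS (−0.39). Its 22 wild-type regions included 16 that the knockout list lacked, 1 of the 22 was strong, and that strong one was found in the knockout. The ratios of its neighbours Ncf4 and Csf2rb2 rest in part on the same peaks, and both were also 1.5-fold lower. The ratio of Csf2rb was −0.75 with 10 kb windows, −0.78 with lists of equal covered bases and −0.91 among peaks with −log10 q of 5 or more. Its 50 kb window cut through a region of both genotypes, 1132 bases in the wild type and 1388 in the knockout after 5FU. With regions counted whole, the window had 8821 and 2581 bases after 5FU, and 6314 and 4891 after PBS.

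The other lowest genes came from several pathways. Fap, a serine protease of the cell surface, had 5273 and 399 bases (−2.00, and −1.26 after PBS). Igf2r, the receptor that clears IGF2 and sorts lysosomal enzymes, had 5208 and 406 (−1.98, and −0.87 after PBS). Mmrn1, a platelet and endothelial matrix protein, had 6226 and 1024 (−1.68, and −0.54 after PBS). Rbp2, an intracellular retinol-binding protein, had 7214 and 1785 (−1.40, and −1.44 after PBS), and was also lower in HPCs after PBS (4729 and 2097, −0.94). Upb1, the last enzyme of the pathway that degrades uracil and 5FU in the liver, had 6029 and 1314 (−1.44, and −0.81 after PBS). Zfp957, Sorcs2 and Serpine2 had ratios of −1.66, −1.60 and −1.55. Of these 10 genes, only the window of Zfp957 held a strong region that was exclusive to the wild type, 1 of 23, so the other regions missing from the knockout lay below the strong quartile. Among peaks with −log10 q of 5 or more the ratio of Rbp2 was 0.08, and with 10 kb windows that of Serpine2 was −0.55, short of 1.5-fold.

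Promoter windows in the wild-type list alone are shown for 4 named or listed genes. Such a window overlapped a wild-type and no knockout peak, which can also arise where a wild-type peak is merely wider. The windows were picked after their values were seen. Sequences are RefSeq's for GRCm38.p6, from 250 bases before to 50 after a start, 5′ to 3′ on the gene's strand, and capitals mark matches to any of the 12 factor motifs that were searched on both strands. Rbp2 is at chr9:98490287-98490586 (plus strand), the 2 starts of Gfi1 at chr5:107724294-107724593 and chr5:107725756-107726055 (minus strand), Mmrn1 at chr6:60944067-60944366 (plus strand) and Itgam at chr7:128062390-128062689 (plus strand).
Rbp2: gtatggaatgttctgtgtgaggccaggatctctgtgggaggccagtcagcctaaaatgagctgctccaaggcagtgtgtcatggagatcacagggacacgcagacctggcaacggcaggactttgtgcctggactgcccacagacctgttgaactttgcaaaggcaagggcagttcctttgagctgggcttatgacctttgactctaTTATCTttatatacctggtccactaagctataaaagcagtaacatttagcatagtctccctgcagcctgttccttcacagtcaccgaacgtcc
Gfi1, first of the starts by position: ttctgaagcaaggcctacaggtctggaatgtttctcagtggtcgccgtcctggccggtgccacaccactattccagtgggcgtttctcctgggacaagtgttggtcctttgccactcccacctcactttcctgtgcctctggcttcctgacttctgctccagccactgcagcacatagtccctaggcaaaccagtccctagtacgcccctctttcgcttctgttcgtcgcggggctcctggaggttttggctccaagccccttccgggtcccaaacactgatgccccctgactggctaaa
Gfi1, second of the starts by position: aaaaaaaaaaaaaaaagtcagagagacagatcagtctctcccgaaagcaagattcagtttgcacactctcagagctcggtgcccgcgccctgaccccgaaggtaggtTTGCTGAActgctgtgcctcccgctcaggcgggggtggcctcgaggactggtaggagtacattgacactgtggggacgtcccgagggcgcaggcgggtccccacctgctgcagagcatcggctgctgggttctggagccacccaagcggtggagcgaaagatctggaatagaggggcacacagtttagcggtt
Mmrn1: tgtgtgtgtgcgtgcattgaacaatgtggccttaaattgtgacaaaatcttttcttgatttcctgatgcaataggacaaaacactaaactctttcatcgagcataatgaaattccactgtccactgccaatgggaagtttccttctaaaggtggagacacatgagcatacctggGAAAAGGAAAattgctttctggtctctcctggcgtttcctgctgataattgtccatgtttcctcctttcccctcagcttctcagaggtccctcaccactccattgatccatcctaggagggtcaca
Itgam: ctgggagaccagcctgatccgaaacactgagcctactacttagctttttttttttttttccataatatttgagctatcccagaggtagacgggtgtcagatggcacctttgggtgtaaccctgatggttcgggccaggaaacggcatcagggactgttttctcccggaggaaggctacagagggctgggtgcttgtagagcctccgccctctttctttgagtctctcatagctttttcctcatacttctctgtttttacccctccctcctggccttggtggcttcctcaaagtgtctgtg
The capitals are a GATA motif (AGATAA) in Rbp2, a C/EBP motif (TTGCNNAA) in the second Gfi1 start and an IRF motif in Mmrn1, which were in 11.2%, 10.9% and 3.46% of all promoter windows, and the other 2 windows held no match. The nearest knockout peak lay 519 bp from the Rbp2 window, 556 and 307 bp from those of Gfi1, 396 bp from that of Mmrn1 and 2597 bp from that of Itgam. After PBS the Rbp2 and both Gfi1 windows were again in the wild type alone, that of Mmrn1 was in both lists and that of Itgam in neither.

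Most promoter windows had the same state in both lists, and most of those were unmarked. Of 31396 autosomal promoter windows, 9552 (30.4%) held H3K27ac in both lists, 1166 (3.71%) in the wild type alone and 423 (1.35%) in the knockout alone. The remaining 20255 (64.5%) held it in neither list. Among 412 windows of listed genes, 33 (8.01%) were in the wild type alone and 6 (1.46%) in the knockout alone. These shares are of all windows, marked or not, and how often listed windows were marked at all was not compared. Of the wild-type-only windows 650 (55.7%) lay within 300 bp of a knockout peak and 340 (29.2%) at least 1000 bp from one, so most of these differences lay near the edge of a knockout peak. Of 426 wild-type-only windows that were in 1 genotype alone after PBS too, 323 (75.8%, 71.5% to 79.6%) were again in the wild type. Of 161 knockout-only windows, 82 (50.9%, 43.3% to 58.5%) were again in the knockout. Among all 1567 windows in 1 genotype only after PBS these shares were 67.7% and 32.3%.

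Promoters marked in both genotypes held more CpG and more often the ETS and CRE motifs than those of 1 genotype alone. The ETS motif CCGGAAGT, on either strand, was in 9.86% (9.28% to 10.5%) of windows marked in both lists, 4.72% (3.64% to 6.09%) of wild-type-only, 2.84% (1.63% to 4.89%) of knockout-only and 3.95% of all windows. The CRE motif TGACGTCA was in 4.21%, 1.03%, 0.946% and 1.83% of these. The median number of CpG was 22 in windows marked in both, 16 in wild-type-only, 15 in knockout-only and 4 in unmarked ones. The GATA motif AGATAA was in 5.96%, 6.86%, 10.6% and 11.2% of windows marked in both, in the wild type, in the knockout and of all. For each of the 12 motifs the intervals of wild-type-only and knockout-only windows overlapped.

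The genes with more bases covered by H3K27ac peaks in the knockout were led by Ide and by the cell cycle inhibitor Cdkn2c. Ide, the insulin-degrading enzyme, had 5188 bases in the wild type and 10742 in the knockout (1.08), and 5793 and 9466 after PBS (0.78). Cdkn2c encodes p18, an inhibitor of CDK4 and CDK6 that restrains HSC self-renewal in mice. It had 3119 and 6630 bases after 5FU (1.05) and 2924 and 5102 after PBS (0.79). All 7 wild-type regions in its window were found in the knockout, which had 6 further regions among its 11, and 2 of these 6 were strong. The widest of these, 1147 bases at chr4:109656775-109657921, lay beyond the lower-coordinate end of the gene, where neither wild-type list had a peak and the knockout PBS list had a region of 1007 bases. Within the gene, a knockout region of 1640 bases at chr4:109664217-109665856 stood over wild-type peaks of 181 and 191 bases. After PBS the knockout list had 1326 bases there.

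**Figure D4:**
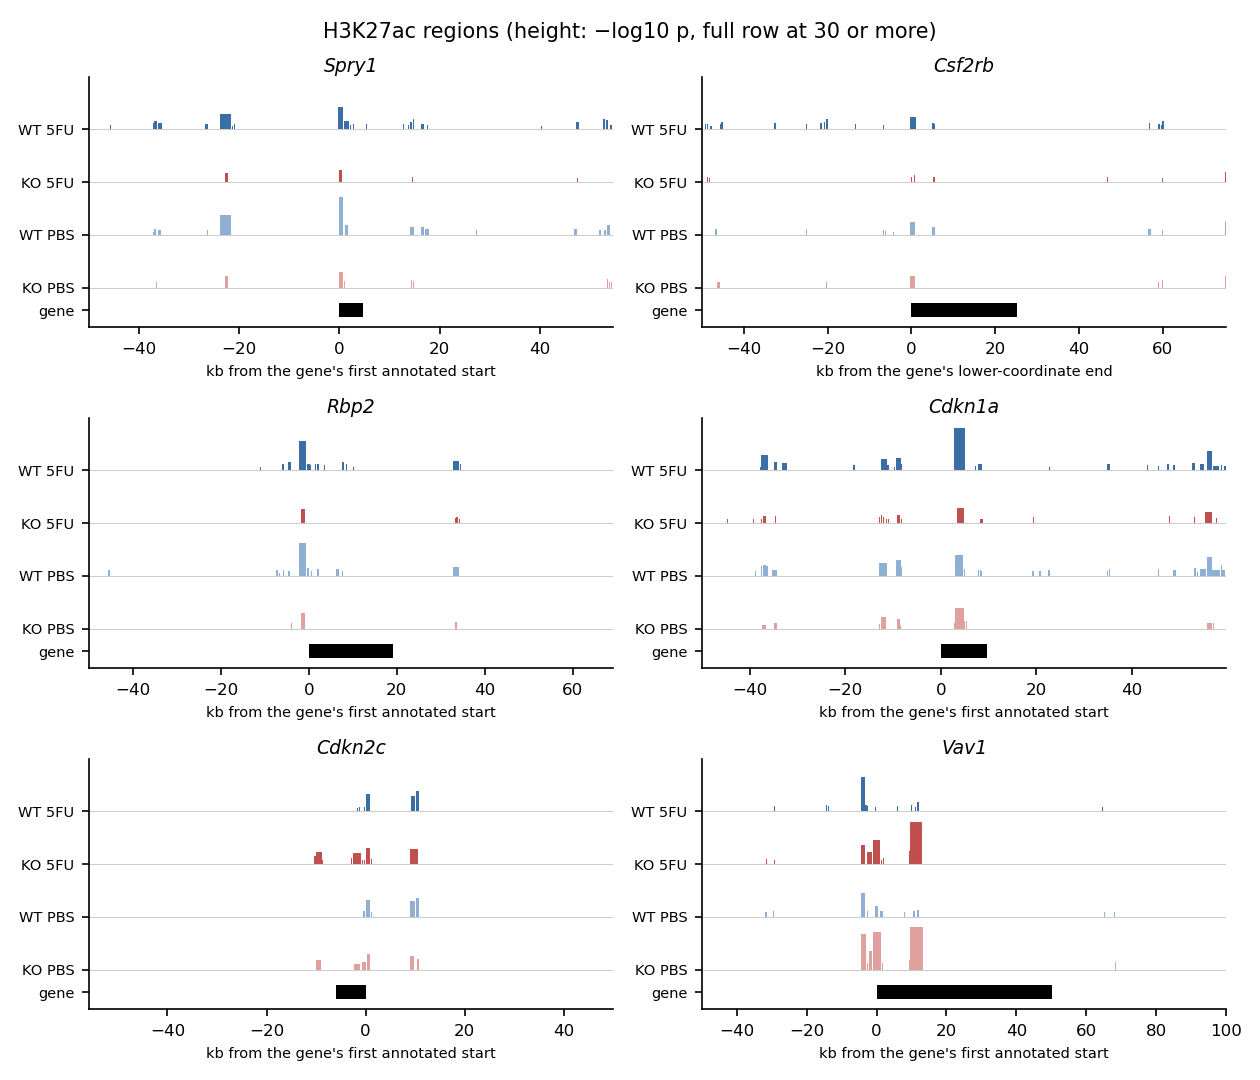
H3K27ac regions at 6 genes in wild-type (WT) and knockout (KO) HSCs after 5FU and PBS, by distance in kb from the gene's first annotated start or, for Csf2rb, its lower-coordinate end; block width is the region's width, block height its −log10 p within its own list (full row at 30), and the black bar is the gene. Spry1, Csf2rb, Rbp2 and Cdkn1a show fewer knockout than wild-type blocks after either treatment, Cdkn2c added knockout blocks beyond the gene, and Vav1 a wide knockout block about 9.63 to 13.09 kb after its start in both treatments.

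Vav1, whose regulatory sequence drives Cre in the knockout, was also among the higher genes. The gene, which encodes a guanine nucleotide exchange factor of blood cells, had 4964 bases in the wild type and 8927 in the knockout after 5FU (0.89), and 5631 and 9093 after PBS (0.76). The knockout list had a region of 3464 bases at chr17:57288729-57292192, in the body of the gene, and 1 of 2111 bases over the start. In the stretch chr17:57288417-57292192, which was picked after its values were seen, the knockout list covered 3700 of 3776 bases after 5FU and 3684 after PBS, and the wild type 1520 and 1101. In HPCs the knockout lists covered 3734 and 3515 bases and the wild-type lists 2503 and 2353. For H3K4me1 at 8 weeks, heterozygous HSCs, which also carry Vav-Cre, covered 3695 bases, knockout HSCs 3708 and wild-type HSCs 2141. Peaks of the transgene and of the endogenous gene cannot be told apart here, and neither can the transgene and the loss of Kmt2c as the source of the difference.

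The remaining genes in this direction had smaller ratios. Zfp51, a zinc finger gene, had 2668 and 5160 bases (0.91, and 1.16 after PBS). Srpk2, an SR protein kinase gene at chr5:23503356-23684642, lies on the same chromosome as Kmt2c (chr5:25271795-25498855) and had 3727 and 6135 (0.75, and 0.52 after PBS). H2al2a and Fgfbp3 had ratios of 0.73 and 0.67. Hdac4, a class II histone deacetylase, had 0.76 after 5FU and −0.01 after PBS, and Sil1, a co-factor of the chaperone BiP, 0.89 and −0.20. Hdac4 (0.44), Sil1 (0.47), Srpk2 (0.40) and Fgfbp3 (0.53) fell short of 1.5-fold among peaks with −log10 q of 5 or more, and Fgfbp3 (0.57) did with lists of equal covered bases.

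The targeted gene kept its H3K27ac peak coverage. Kmt2c had 6821 bases in the wild type and 7048 in the knockout (0.20), and its 5 wild-type regions were all found in the knockout. A peak list does not show whether the floxed exons were deleted, so this is no check of the genotype. Over 20 measured genes of the H3K4 methylation and enhancer complexes the median was 0.07. None was 1.5-fold lower or higher, against 5.04% and 0.677% of all genes. Kmt2d, the nearest relative of Kmt2c, was at −0.03 and Ep300 at 0.24.

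Among cell cycle inhibitors, Cdkn1a and Cdkn1c were 1.5-fold lower and Cdkn2c higher. They were 2 (12.5%) and 1 of 16 measured list members, against 5.04% and 0.677% of all genes. The list of 16 measured quiescence genes and inhibitors had a median of −0.12 with 11 below the median gene, but this sign reversed with 10 kb windows (0.03) and with −log10 q of at least 5 (0.11) or 2 (0.06). Cdkn1a, which encodes p21, a target of p53 that keeps HSCs quiescent, had 15551 bases in the wild type and 7446 in the knockout (−0.81), and 15344 and 7136 after PBS (−0.85). The ratio after 5FU was −0.28 with 10 kb windows and −0.26 with lists of equal covered bases, both short of 1.5-fold. Its widest wild-type region after 5FU, 2267 bases at chr17:29093785-29096051, overlapped knockout regions of 1356 bases at chr17:29094355-29095710 and of 161 bases. After PBS the strongest region there was not shorter in the knockout, with 1745 bases against 1662 in the wild type. Of its 25 wild-type regions after 5FU, 14 were absent from the knockout list. Cdkn1c, which encodes p57, had 3692 and 1649 (−0.66, and −0.99 after PBS), but after 5FU fell short of 1.5-fold with 5000 bases added. Cdkn1b, which encodes p27, had 14849 and 16050 (0.27, and 0.22 after PBS), and Cdkn2c was 1.5-fold higher as above.

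In 2 lists of myeloid lineage genes, 5 members each were 1.5-fold lower in the knockout after 5FU and 2 each after PBS. Of all genes, 4.63% were 1.5-fold lower after PBS. Of 23 measured granulocyte and monocyte genes, 16 lay below the median gene and 5 (21.7%) were 1.5-fold lower, against 5.04% of all genes, with a median of −0.24 after 5FU and −0.13 after PBS. Besides Csf2rb, the lowest were Cebpe, needed for the late steps of granulocyte maturation (9238 and 3684 bases, −0.97, but −0.01 after PBS), and Gfi1, a transcriptional repressor of neutrophil development (3503 and 1412, −0.74, and −0.23 after PBS). Cebpa, the factor that starts granulocyte commitment, was at −0.48 and Spi1, which encodes PU.1, at −0.04. Of 17 measured megakaryocyte and erythroid genes, 12 lay below and 5 (29.4%) were 1.5-fold lower, with a median of −0.26 after 5FU and after PBS. These 5 include Fli1 (−0.64), which is also in the HSC identity list. Among the lowest were Ank1, the ankyrin of the erythrocyte skeleton (5702 and 2376, −0.83), and Gp9, a platelet receptor subunit (21858 and 11447, −0.72). With lists of equal covered bases the medians of these lists moved to −0.07 and 0.05, and the ratios of Ank1 and Gp9 to −0.52 and −0.58, short of 1.5-fold. Gp9 was at −0.55 with 10 kb windows, and among peaks with −log10 q of 5 or more Cebpe was at −0.31 and Gfi1 at 0.17.

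**Figure D5:**
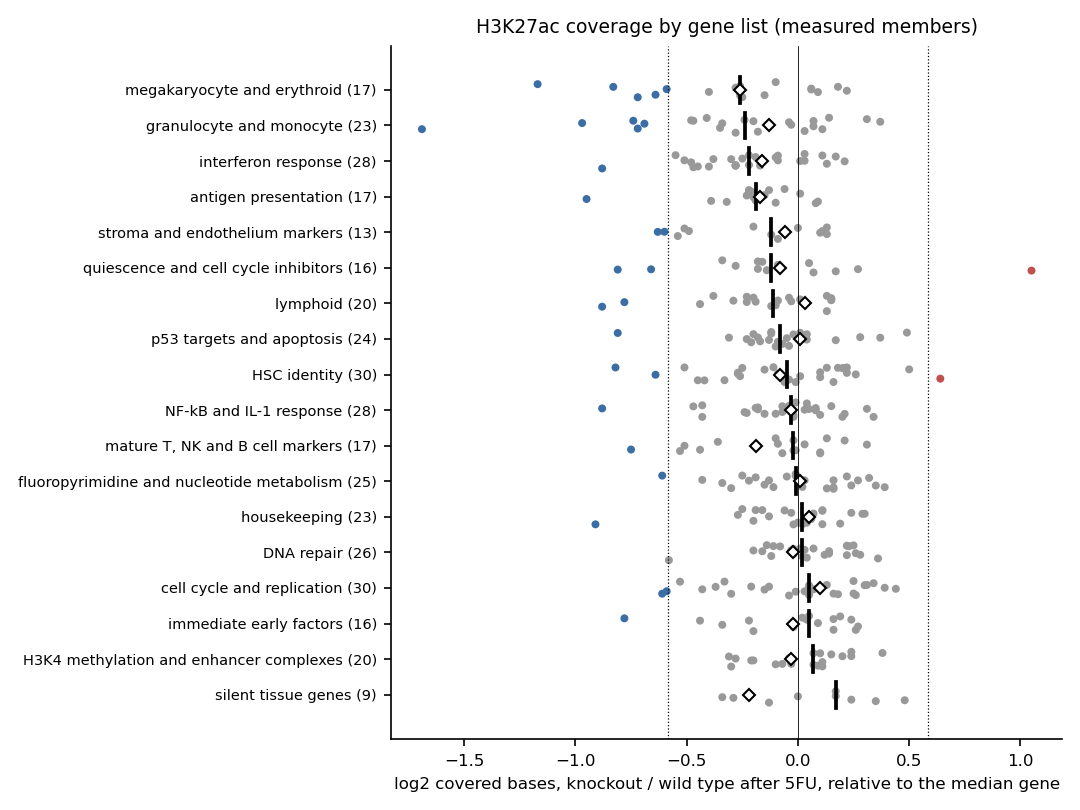
Log2 ratio of covered bases in knockout over wild type after 5FU, relative to the median gene, 1 point for each measured member of 18 gene lists (number measured in brackets); blue points are 1.5-fold lower and red points 1.5-fold higher. Black bars are list medians after 5FU and open diamonds list medians after PBS; the bars run from −0.26 for megakaryocyte and erythroid genes to 0.17 for silent tissue genes.

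Most interferon and antigen presentation genes lay below the median gene, few by 1.5-fold. Of 28 measured interferon response genes 21 lay below the median gene, the median was −0.22 (−0.16 after PBS), and 1 was 1.5-fold lower, Usp18, the brake on type I interferon signalling (4105 and 1480 bases, −0.88, and −0.66 after PBS, but −0.36 with lists of equal covered bases and 0.13 among peaks with −log10 q of 5 or more). The share called, 1 of 28, is near that of all genes (5.04%), as is 1 of 17 in the list that follows. The interferon genes ran from −0.88 to 0.21, with Oas1a (0.21), Bst2 (0.17) and Ddx58 (0.13) the highest. The receptor genes Ifnar1, Ifnar2, Ifngr1 and Ifngr2 were at −0.48, −0.30, −0.28 and −0.47. Of 17 antigen presentation genes 14 lay below, the median was −0.19 (−0.17 after PBS), and Ciita, the master regulator of MHC class II, was 1.5-fold lower (4387 and 1503, −0.95, and −0.46 after PBS, but 0.39 with lists of equal covered bases). Both lists stayed at −0.10 or below under all alternatives tried. Several of these genes are neighbours in clusters, so their windows share peaks.

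HSC identity genes lay close to the median gene. All 30 were measured, the median was −0.05 and 17 lay below the median gene. Of the 30, 2 (6.67%) were 1.5-fold lower and 1 higher, against 5.04% and 0.677% of all genes. Gfi1b, a repressor that holds HSCs quiescent, had 4459 and 1765 bases (−0.82, and −0.90 after PBS), and Fli1, an ETS factor, 36525 and 20510 (−0.64, and −0.73 after PBS, but 0.09 with lists of equal covered bases). The ratio of Gfi1b was −0.54 with lists of equal covered bases. Fli1 also lay lower in knockout HPCs (38692 and 23715 after PBS, −0.74). Mecom, Hlf and Meis1, factors that hold HSC self-renewal, were at 0.20, 0.13 and 0.22, whereas Prdm16, Procr, Tal1 and Mllt3, also factors or markers of HSCs, were at −0.51, −0.27, −0.27 and −0.06. Angpt1, which encodes the ligand of Tek, was at 0.50 (−0.12 after PBS). Tek, its receptor, was the only member 1.5-fold higher (2258 and 3548, 0.64), but had 2467 and 1301 after PBS (−0.44), was at 0.15 with 10 kb windows, and its sign reversed to −1.08 among peaks with −log10 q of 5 or more, where the knockout list had none.

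Gene groups of the acute response to 5FU had medians close to the median gene. Across these, the immediate early, NF-kB and housekeeping lists, 0% to 6.67% of members were called lower, against 5.04% of all genes. The 24 measured p53 and apoptosis genes had a median of −0.08 and held 1 gene called lower, Cdkn1a. The 26 DNA repair genes had a median of 0.02 with none called, the 30 cell cycle genes 0.05 with Aurka (−0.61, but 0.03 with 10 kb windows and 0.28 with −log10 q of 5 or more) and Ccnd1 (−0.59, but −0.27 with 10 kb windows) called lower, and the 25 genes of fluoropyrimidine and nucleotide metabolism −0.01 with 1 called lower. Of the immediate early genes Egr3 alone was called lower (11001 and 5237, −0.78, but −0.30 with 10 kb windows), in a list with a median of 0.05. Of 28 NF-kB and IL-1 genes Il1rl1, the IL-33 receptor, was called lower (6921 and 2853, −0.88), but not with 5000 bases added. The list had a median of −0.03, with Il1r1 at 0.20 and Nfkbia at −0.24. Housekeeping genes had a median of 0.02, with 1 called lower, Snrpd3 (−0.91, but −0.14 with 10 kb windows), whose window overlaps that of Upb1.

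Among lymphoid genes 2 of 20 (10.0%, against 5.04% of all genes) were 1.5-fold lower, Tcf7 (11067 and 4857, −0.88) and Notch1 (21535 and 10739, −0.78), with a list median of −0.11 after 5FU and 0.03 after PBS. With lists of equal covered bases Tcf7 was at −0.51 and Notch1 at −0.37. Both act in early T cell commitment. Notch1 was also low in knockout HPCs (−0.58 after PBS). Markers of other cell types were measured beside these. Of 20 mature T, NK and B cell markers 17 were measured, with a median of −0.02. Klrb1c had 18941 bases in the wild type and 15688 in the knockout, and Cd4 8448 and 9507. Cd8a, Gzma and Ncr1 were at 0 bases in both lists. Of 18 stromal and endothelial markers 13 were measured, with a median of −0.12 (0.02 with lists of equal covered bases). Runx2 had 65263 and 58489 bases and Pecam1 37412 and 22707. Cxcl12, Lepr, Pdgfra, Col3a1 and Vcam1 were at 0 in both. Cd28 (−0.75), Col1a2 (−0.63) and Kdr (−0.60) were the members of these lists called lower, 5.88% and 15.4% of those measured. With lists of equal covered bases they were not called (−0.25, −0.45 and −0.27). The part of such mature, stromal or endothelial cells in the other results was not tested. Genes of tissues outside the blood had a median of 0.17 over 9 measured members, 0.00 with lists of equal covered bases, with none called. A smaller share of primed cells within the HSC gate and less H3K27ac per cell cannot be told apart in pooled lists.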

How the data were processed

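H3K27ac and H3K4me1 were profiled by ChIPmentation in mouse HSCs and HPCs, and 18 peak lists were used. Reads were aligned to mm10 (GRCm38) with Novoalign and peaks called with MACS2, per the submitters' processing notes; the sources used here give no versions, thresholds or way of pooling. Each deposited list gives, for each peak, the authors' −log10 p-value, their −log10 q-value (a score of the peak caller) and the authors' fold enrichment (a ratio), which were used only to rank and filter peaks within a list. Depth is unknown, so intervals cover counting error of regions only.

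Overlapping peaks were merged, and lists were compared by overlap and by covered bases, with Wilson 95% intervals. Gene values were bases covered in the gene and 50 kb on both sides, plus 1000, as log2 ratios relative to the median gene; 1.5-fold was the call, and a list was called at a median 0.1 from 0. Named genes were the 10 lowest and 10 highest that had 5000 or more covered bases, 1 per neighbourhood, and up to 3 called members a list in each direction; a few of these are not reported here. Gene positions, promoters and names were RefSeq's. With 1 list per genotype no test was run. The members and gene lists were chosen with earlier results of these data known. The scripts were tested on simulated data. Python 3.11.15, numpy 2.4.6, pandas 2.3.3, scipy 1.17.1 and matplotlib 3.10.9 were used. Alternatives were strength by fold, other limits, overlaps, windows and added bases, and lists of equal size. The limit of −log10 q of 2 was chosen after seeing the data.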

Additional observations from a re-analysis of the deposited data

Results flagged for a closer look

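The relative log2 ratio of Sil1 was 0.89 after 5FU (3467 bases in the wild type, 6400 in the knockout) and −0.20 after PBS (6189 and 4608), so the genotypes stood in opposite order under the treatments. The ratio of Tek was 0.64 after 5FU (2258 and 3548) and −0.44 after PBS (2467 and 1301). With 1 list per group neither difference between treatments was tested.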

How the results depend on the processing

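No paired analysis was possible because each group is 1 pooled list, and no replicate could be left out. The knockout share of strong exclusive regions (55.0%) was 39.3% with strength by fold, 100% for the top 10% (1 region), 4.17% and 0.940% with −log10 q of at least 5 and 2, 43.8% with peaks within 500 bp merged and 99.8% with the lists cut to equal bases. In that order, strong wild-type regions were found in 98.5%, 100%, 99.5%, 97.3%, 99.9% and 100% of cases, and strong knockout regions in 99.0%, 100%, 100%, 100%, 99.9% and 95.1%; with an overlap of 50% of the shorter region the shares were 98.5% and 98.0%. The same genotype after PBS (67.4%) was seen for 75.7% by fold, 100% (3 of 3) and 89.6% at the q limits, 81.8% with equal bases and 100% (7 of 7) after merging, and the top 10% gave no value. With equal bases, H3K4me1 at 8 weeks covered 50% of wild-type (1 of 2) and 70.9% of knockout exclusive regions. Lower genes numbered 141 with 5000 bases added, 2635 and 1637 at the q limits of 5 and 2 and 338 with equal bases, and higher genes 2 with 5000 added, 248 at the limit of 5 and 352 with equal bases. With equal bases, 660 of 690 lower genes still measured and 103 of 103 higher genes kept their sign. Sign changes were counted only for lists and genes that were called in the main setting, not for those near the median gene. Of 126 list medians under these alternatives 6 reversed a called sign: quiescence with 10 kb windows (0.03) and q limits of 5 (0.11) and 2 (0.06), and, with equal bases, megakaryocyte and erythroid (0.05), stroma (0.02) and silent tissue genes (0.00). Of 323 gene ratios 9 reversed a called sign: Aurka with 10 kb (0.03), Tek with a q limit of 2 (−0.80), Fli1 (0.09) and Ciita (0.39) with equal bases and, with a q limit of 5, Aurka (0.28), Rbp2 (0.08), Tek (−1.08), Gfi1 (0.17) and Usp18 (0.13). Of 40 named genes past 1.5-fold, the call was lost with no change of sign for 9 of 35 still measured with 10 kb windows, 22 with 5000 bases added, 6 of 33 and 6 of 40 at the q limits of 5 and 2, 14 with equal bases, 1 with no minimum and 0 with equal numbers of peaks. Another 23 list medians crossed the 0.1 limit without changing a called sign. The cause was not tested.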

Other observations

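Among 1600 bins of 1 Mb, the stretch at chr6:60000001-61000000, which holds Mmrn1, had 6495 covered bases in the wild type and 1024 in the knockout after 5FU, a relative log2 ratio of −1.61, and −0.27 after PBS. At chr13:117000001-118000000 the ratios were −1.04 and −0.85. On chromosome X, chrX:169000001-170000000 had 4600 and 9025 bases after 5FU (1.12) and 2385 and 8664 after PBS (1.81), whereas the 354 measured X genes had a median of 0.05 after 5FU. The sex of the mice is not in the labels used here, and its part in the X value was not tested.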
